A study of Mus musculus with 18 samples.

Results

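Cytosolic ribosomal protein genes encode the proteins that, with ribosomal RNA, build the ribosomes of the cytoplasm. They were taken here as every gene whose deposited name begins with Rpl or Rps followed by a plain subunit name (a, p0 to p2, or a number with an optional a or x). This rule gave 76 of the 22619 genes in the count table, 46 of the large subunit (Rpl) and 30 of the small subunit (Rps). All 76 passed the low-count filter of every comparison. The rule leaves out divergent copies such as Rpl22l1 and Rps27l, the fusion gene Fau, and Rack1, which are described as a separate list.

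RNA was sequenced from DN3 and DP thymocytes sorted from wild type mouse thymi 28 days after transplantation. DN3 cells lack CD4 and CD8 and rearrange the T-cell receptor beta gene, and DP cells are the later stage with both CD4 and CD8. The 18 libraries formed 4 groups: DN3 turnover (n = 4), DN3 autonomy (n = 5), DP turnover (n = 4) and DP autonomy (n = 5). In thymus grafts, turnover means that progenitors from the host replace the thymocytes, and autonomy that the graft maintains itself without them. Every group thus shares the wild type graft and the graft time, and the hosts, strains, ages and sexes are not stated in the sources used here. Turnover libraries are named RP1140A, RP1140B, RP1141A and RP1141B, where A and B may or may not be separate animals. The labels tie no library to an animal, so the p-values below cover the spread between libraries only, which may be technical.

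A ribosome holds 1 copy of nearly every ribosomal protein, so cells make these proteins in matched amounts. Their mRNAs mostly begin with a C followed by a run of pyrimidines, the 5' terminal oligopyrimidine (TOP) tract, through which mTOR signalling and the RNA-binding protein LARP1 control their translation, while Myc promotes transcription of the genes. Thymocytes divide fast after the DN3 stage, when cells with a working beta chain are selected, and most DP cells then rest. Loss of the large-subunit protein RPL22 in mice blocks alpha-beta thymocytes at this transition through p53, and RPL5 and RPL11, bound to 5S rRNA, hold MDM2, the protein that degrades p53.

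Total counts ran from 5032273 to 24191044 per library, and Pearson correlations of log2 CPM within a group from 0.92 to 0.980. CPM denotes a gene's count relative to its library size after TMM scaling over all 18 libraries. Of the 4 DN3 markers, Il2ra, Ptcra and Notch1 summed to 1446 to 3042 CPM in DN3 and 156.5 to 409.5 CPM in DP libraries, while Rag1 went the other way, with 48.1 to 183.4 CPM in DN3 and 670.4 to 937.1 CPM in DP. The summed coreceptor transcripts of DP cells (Cd4, Cd8a, Cd8b1) lay at 4854 to 5993 CPM in DP. One library stood apart: DN3 turnover RP1141B had 1136 CPM of them against 16.3 to 32.8 CPM in the other DN3 turnover libraries, with Cd8a at 385.3 CPM against 2.53 to 7.35 CPM, while the DN3 autonomy libraries had summed levels of 127.2 to 208.9 CPM. The share ratios and the counts and medians of called members that use this library are also given without it. In bulk samples, fewer cells of a type and less RNA per cell cannot be told apart.

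Pyrimidine runs near the annotated start, called tracts below, were looked for in the genome, and the start windows of 9 members described later are shown. Such a run need not begin the mRNA, so its presence or absence does not settle whether the mRNA has a TOP tract. The RefSeq promoter table (GRCm38.p6) held 56 of the 76 members. Each sequence runs 20 bases before to 20 bases from the annotated start on, 5' to 3' on the gene's strand, with every C followed by at least 5 more C or T in capitals. Rps6 (chr4:86857348-86857387, minus strand), Rpl14 (chr9:120571497-120571536, plus), Rpl35 (chr2:39005112-39005151, minus) and Rps27 (chr3:90213629-90213668, minus) have a tract that spans or touches the annotated start. In Rpl4 (chr9:64173367-64173406, plus) and Rpl5 (chr5:107900508-107900547, plus) the tract lies before that start. Rpl10 (chrX:74270796-74270835, plus), Rps4x (chrX:102189372-102189411, minus) and Rpsa (chr9:120127746-120127785, plus) have none in the window.
Rps6: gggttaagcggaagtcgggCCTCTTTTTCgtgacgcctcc
Rpl14: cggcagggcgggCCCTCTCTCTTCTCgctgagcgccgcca
Rpl35: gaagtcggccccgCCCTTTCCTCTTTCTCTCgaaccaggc
Rps27: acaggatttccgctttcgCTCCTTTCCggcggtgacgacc
Rpl4: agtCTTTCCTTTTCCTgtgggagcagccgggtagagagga
Rpl5: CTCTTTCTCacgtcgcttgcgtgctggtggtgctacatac
Rpl10: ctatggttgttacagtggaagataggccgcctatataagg
Rps4x: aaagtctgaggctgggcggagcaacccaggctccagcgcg
Rpsa: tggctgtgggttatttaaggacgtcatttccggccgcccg

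A tract occurred anywhere in the window for 38 of the 56 members, or 67.9%, against 32.8% of all 27025 genes in the table. The start in the promoter table was exactly the outer end of the gene in the RefSeq gene table for 48 of the 56 members and lay over 100 bases inside it for 6 (gene coordinates given below are those of GENCODE, whose ends can differ), among them Rps2, so absence of a tract describes this window only. Across the 300 bases from 250 before to 50 after the start, CCGGAAG, the binding motif of ETS factors, occurred on either strand in 23 members (41.1%) against 9.9% of all genes. The Myc-binding E-box CACGTG occurred in 6 members (10.7%) against 8.1% of all genes.

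Ribosomal protein genes took a larger part of the RNA counts in DN3 than in DP cells, 1.85 times as large under turnover and 2.34 times under autonomy. Their share of all gene counts was 5.18%, 6.58%, 6.74% and 3.78% in DN3 turnover libraries RP1140A, RP1140B, RP1141A and RP1141B. In DN3 autonomy libraries RP1133, RP1134, RP1135, RP1137 and RP1138 it was 5.19%, 5.67%, 6.32%, 5.76% and 6.11%. In the DP turnover libraries, in the same order as for DN3, it was 3.38%, 2.68%, 3.38% and 2.59%. In DP autonomy libraries RP1133, RP1135, RP1136, RP1137 and RP1138 it was 2.23%, 2.76%, 2.76%, 2.56% and 2.11%. No DP library reached the lowest DN3 library, and that lowest library was RP1141B, which carries the DP transcripts. Group means were 5.57% ± 1.38 (SD, n = 4) for DN3 turnover, 5.81% ± 0.435 (n = 5) for DN3 autonomy, 3.01% ± 0.434 (n = 4) for DP turnover and 2.49% ± 0.304 (n = 5) for DP autonomy. Autonomy and turnover overlapped within each cell type, with mean ratios of 1.04 in DN3 and 0.827 in DP. Without RP1141B the DN3 turnover mean was 6.17%, which turned the DN3 ratio to 0.942 and made the ratio of DN3 to DP under turnover 2.05. Large-subunit genes supplied 54.0% to 60.5% of the members' counts in every library.

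**Figure D1:**
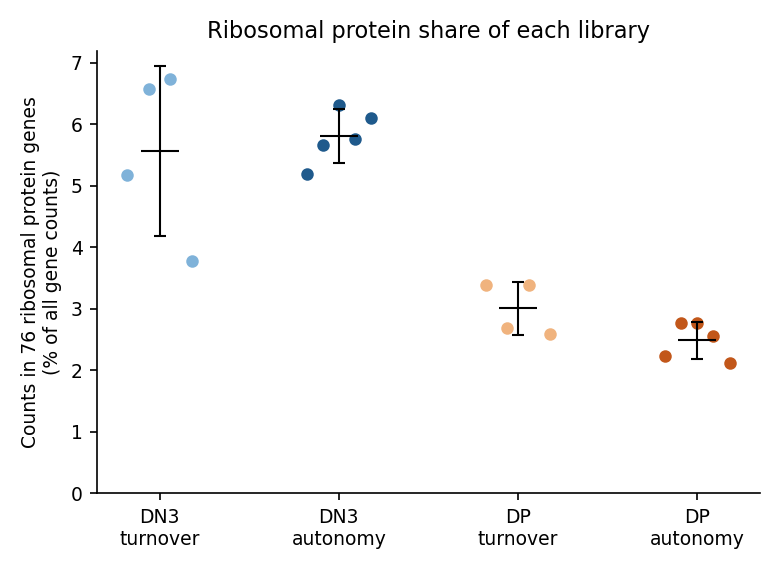
Share of all gene counts taken by the 76 ribosomal protein genes (%, y axis) in each of 18 libraries (points), by group (x axis), with mean and SD as bar and whiskers. The DN3 libraries sit between 3.78% and 6.74% and the DP libraries between 2.11% and 3.38%.

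Levels per length, in RPKM (CPM per kilobase of summed exons), spread widely among genes whose products are needed in matched amounts. The summed exons are those of all annotated transcripts together, which for some members are far longer than a single mRNA. In DN3 turnover RP1140A, Rps24 at 558.9 CPM had 89.3 RPKM, with a transcript of 468 bases. Rpl36 at 206.3 CPM had 538.7 RPKM, with 383 bases. How much of the spread and of the ranks comes from this length was not tested. In DN3 turnover the median member had 308.4 RPKM. Highest were Rplp0, the base of the stalk that recruits translation factors, at 2076 RPKM, and Rpl4, which lines the peptide exit tunnel, at 1886 RPKM. Lowest were Rps10 and Rpl13a, at 0.911 and 0.935 RPKM, far under the next member, Rpl21, at 38.6 RPKM. Rps10 had 0.724 to 2.61 CPM and Rpl13a 0.756 to 4.28 CPM over all libraries. Annotated exons of other genes cover 28.7% of Rps10 and 35.4% of Rpl13a exon bases, but also 47.0% of those of Rpl24, at 333.0 to 554.2 RPKM in DN3 turnover. Of the 76 members, 75 share at least one 50-base stretch with transcripts of other genes, so such reads may have been counted elsewhere or dropped. This was not tested, and the handling of shared reads is not stated in the sources used here. The median member shared 50% of its stretches, Rps10 74.21% and Rpl13a 22.04%, the highest being Rps27 with 98.65%.

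In turnover thymi, DP cells had less mRNA than DN3 cells, relative to all genes, for most ribosomal protein genes of both subunits. With edgeR's quasi-likelihood test, 65 of 76 members were lower in DP and none higher at an adjusted p under 0.05, where 19.1% of the 11521 genes tested were lower and 15.8% higher. At an unadjusted p under 0.05, 70 were lower and 0 higher. The share of all genes at an unadjusted p was not computed, here or below. Such counts therefore have no background and are not to be set against the adjusted shares. The median difference was −1.01 on the log2 scale against −0.04 for all genes tested, and all 76 estimates were negative. Among large-subunit genes 40 of 46 passed (median −1.0), and among small-subunit genes 25 of 30 (median −1.04). In 40 of 76 members every DP turnover library was below every DN3 turnover library, where 19.6% of all genes tested were. Without the DN3 turnover library RP1141B, 69 members were lower, the median was −1.13 and 69 did not overlap, against 22.6% of all genes. Without DP turnover library RP1141B, 56 were lower.

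In autonomous thymi, 72 of 76 members were lower in DP and none higher, where 25.2% of all genes tested were lower and 23.7% higher. The median was −1.34 against 0.00 for all genes, with 45 of 46 large-subunit and 27 of 30 small-subunit genes passing. Every DP library was below every DN3 library for 67 members, where 20.8% of all genes tested were. The comparison shares no library with the one in turnover thymi. Across the 76 members, the differences in the 2 conditions had a Pearson correlation of 0.71 and a Spearman correlation of 0.65, a description over genes that are not independent and are scaled together.

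Rps2, at the mRNA entrance of the small subunit, fell furthest in autonomous thymi. The gene (ENSMUSG00000044533) lies on chromosome 17 of GRCm38 from 24718116 to 24721929, on the plus strand. It had 660.0, 702.6, 830.8 and 378.7 CPM in the DN3 turnover libraries and 1043, 1066, 927.7, 1046 and 1215 CPM in the DN3 autonomy libraries. In DP it had 170.4, 189.4, 163.1 and 147.1 CPM under turnover and 139.4, 133.4, 141.2, 141.7 and 145.9 CPM under autonomy. The 4 groups did not overlap, with DN3 autonomy on top and DP autonomy at the bottom. The DP groups were parted only by 147.1 against 145.9 CPM, and Rps2 did not pass for autonomy over turnover in DP. In the authors' deposited DESeq2 table that difference is −0.27 (adjusted p = 0.135). The DP over DN3 difference was log2 −1.94 (SE 0.18, adjusted p = 1.7e-07) in turnover and −2.92 (SE 0.16, adjusted p = 1.09e-10) in autonomy.

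Rpl3, close to the peptidyl transferase centre, was lower in DP by log2 −1.91 in turnover and −2.36 in autonomy, from 1102 to 293.6 CPM in turnover and from 1180 to 230.6 CPM in autonomy. Rpl21 and Rpl14 were also among the 5 largest falls in turnover, at −1.72 and −1.66. Rpsa, which also serves as a laminin receptor precursor, and Rpl10, which joins the large subunit late in its assembly, were among those in autonomy, at −2.32 and −2.16. All of these passed the test in both conditions.

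**Figure D2:**
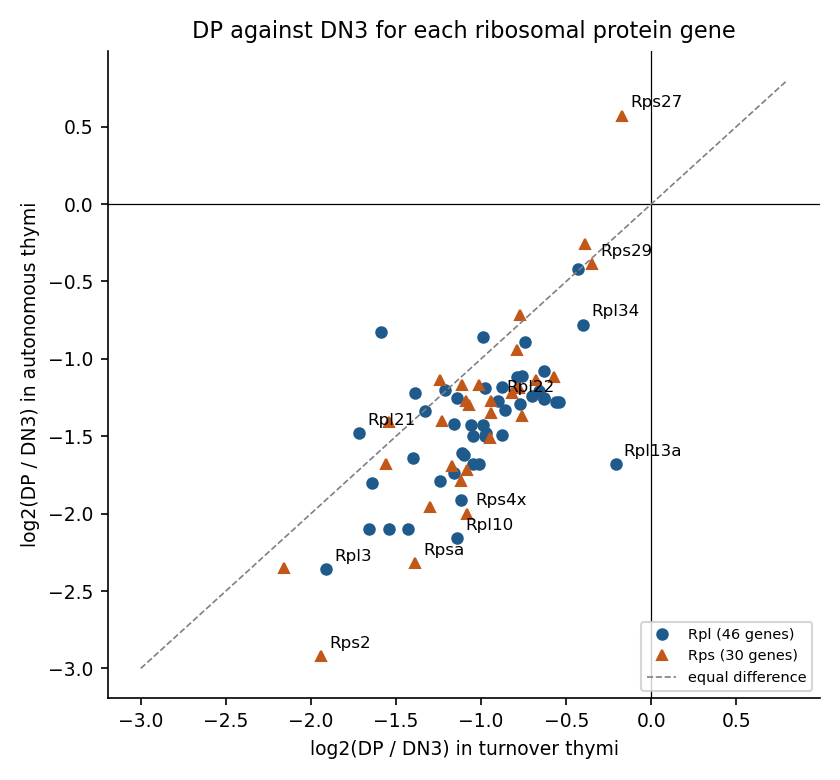
DP over DN3 difference (log2) of each of the 76 members in turnover (x axis) and in autonomous thymi (y axis), large-subunit genes as circles and small-subunit genes as triangles; the dashed line marks equal differences. Every member lies left of 0 on the x axis, and Rps27 alone lies above 0 on the y axis, at 0.57.

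A few members passed the test between the stages in neither condition, which does not show that they stayed level. Rps27, a zinc-finger protein of the small subunit, had 523.8, 443.3, 1053 and 658.1 CPM in DN3 turnover and 775.5, 481.8, 679.3 and 448.8 CPM in DP turnover. It had 311.5, 537.6, 719.8, 514.5 and 714.4 CPM in DN3 autonomy and 715.5, 1343, 831.0, 860.8 and 390.6 CPM in DP autonomy. The libraries of the cell types overlapped in both conditions, and the differences of −0.17 (SE 0.32, adjusted p = 0.729) and 0.57 (SE 0.29, adjusted p = 0.114) did not pass. Its stretches are nearly all shared with other genes, as given above. Rps29, Rpl37a and Rps10 also missed the threshold in both conditions, at −0.35 and −0.39, −0.43 and −0.42, and −0.39 and −0.26, Rps10 at about 2 CPM. These 3 and Rps27 are the 4 members that did not pass in autonomous thymi, and they were singled out after the values were seen.

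When libraries were scaled to the summed counts of the members, so that only their balance remained, 6 members were higher and 10 lower in DP turnover, and 9 higher and 12 lower in DP autonomy. All genes then had median differences of 0.92 and 1.46. Rps27 (0.79 and 1.99), Rps29 (0.67 and 1.04), Rpl34 (0.62 and 0.65) and Rps9 (0.46 and 0.33) were higher relative to the other members in both conditions. Rps2 (−0.89 and −1.45), Rpl3 (−0.87 and −0.88), Rpl14 (−0.67 and −0.64), Rpl5 (−0.44 and −0.64) and Rpl12 (−0.51 and −0.65) were among those lower in both. Rps9, Rpl12 and Rpl34 were named after their values were seen. Across members, the DP over DN3 difference in autonomy had a Pearson correlation of −0.38 and a Spearman correlation of −0.44 with transcript length. In turnover these were −0.26 and −0.30, so longer members tended to have larger falls, more so in autonomy. With the share of stretches found in other genes they were −0.04 and −0.12 in autonomy and −0.06 and −0.03 in turnover. The 38 members with under 50% of their stretches shared and the other 38 had like medians, −1.03 and −1.0 in turnover and −1.28 and −1.42 in autonomy. Members with a pyrimidine tract (38) and without (18) had medians of −1.05 and −0.97 in turnover and −1.39 and −1.23 in autonomy.

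Some members have named roles in thymocytes. Rpl22 was at 204.0 ± 71.9 CPM in DN3 turnover, 221.6 ± 35.1 in DN3 autonomy, 109.2 ± 31.5 in DP turnover and 92.0 ± 28.5 in DP autonomy, lower in DP by log2 −0.90 (SE 0.28, adjusted p = 0.0152) and −1.27 (SE 0.25, adjusted p = 2.91e-04). The call in turnover was lost in 4 of 18 fits that leave out 1 library (DN3 RP1140B or RP1141A, DP RP1140B or RP1141B), with differences of −1.07 to −0.73 over the 18. Its paralog Rpl22l1, which RPL22 is known to repress, fell with it, by −1.73 and −2.14, from 443.5 to 134.2 CPM and from 569.1 to 128.7 CPM. Rpl5 was lower in DP by −1.43 and −2.10. Rpl11 was lower by −1.28 in autonomy, and in turnover its difference of −0.54 had an adjusted p of 0.0515. Rps19, the gene most often mutated in Diamond-Blackfan anaemia, was lower by −1.54 and −1.41. Of the 15 members on the list of Diamond-Blackfan genes, 10 (66.7%) were lower in turnover and 12 (80.0%) in autonomy. These shares were below those of all 76 members, 85.5% and 94.7%, while 19.1% and 25.2% of all genes tested were lower. Rps6, whose protein is phosphorylated by the mTOR-dependent S6 kinases, was lower by −1.17 and −1.69. The stalk gene Rplp0 was lower by −1.01 and −1.68. Rplp1 and Rplp2, the acidic stalk proteins, were lower by −1.08 and −1.68 in autonomy, and in turnover Rplp2 was lower (−1.05) while Rplp1 at −0.63 did not pass.

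Within DN3 cells, autonomy was compared with turnover to ask what changes when no new progenitors arrive. Only 2 members passed, both higher in autonomy, or 2.63% of members where 6.53% of the 10766 genes tested were higher and 8.35% lower. At an unadjusted p under 0.05, 7 members were higher and 0 lower, with no share of all genes computed at that threshold. The median difference was 0.15 against −0.05 for all genes, with 62 of 76 estimates positive. Leaving out library RP1141B, which carries DP transcripts and has the lowest member share, brought the median to 0.01 and left 1 member called, and leaving out RP1141A brought it to 0.34 with 4 called. The count was 0 without RP1140A, RP1137 or RP1138 and 1 without RP1140B, RP1133 or RP1135.

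Rps2, with the values given above, was higher in every DN3 autonomy library than in any DN3 turnover library, by log2 0.71 (SE 0.20, adjusted p = 0.0306, 1.64-fold). It passed without RP1141B, at 0.53 (adjusted p = 0.0351), and missed the threshold without RP1140A, RP1137 or RP1138 (adjusted p = 0.0759, 0.0603 and 0.0671). Rpl14, a large-subunit protein (ENSMUSG00000025794, chromosome 9 from 120571444 to 120574654), had 744.9, 784.8, 940.1 and 575.5 CPM in DN3 turnover and 1030, 974.4, 1182, 1166 and 1116 CPM in DN3 autonomy. These libraries did not overlap either, and the difference was 0.51 (SE 0.15, adjusted p = 0.0416, 1.43-fold). Its call was lost in 7 of the 9 fits that leave out 1 library, among them that without RP1141B (0.40, adjusted p = 0.0783). The authors' deposited table for DN3 calls 3 members higher in autonomy, among them Rps2 and Rpl14, and 0 lower. The share of all genes called there was not taken.

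Summed marker lists of other cell types also differed in this comparison, and whether other cells supplied these transcripts was not tested. The 3 NK markers summed to 113.3 to 160.6 CPM in DN3 turnover and 3.12 to 65.3 CPM in DN3 autonomy, almost all from Nkg7, with Ncr1 at 0 in every DN3 turnover library. The 5 thymic epithelium markers summed to 90.1 to 112.9 and 28.8 to 83.4 CPM, almost all from Epcam, with Foxn1 and Krt5 at 0 in every DN3 turnover library. The 4 B cell markers summed to 52.3 to 91.4 and 13.2 to 42.2 CPM, almost all from Cd79b, with Ms4a1 at 0 throughout. The 6 macrophage markers summed to 17.3 to 35.7 and 1.86 to 12.1 CPM, almost all from Lyz2, the 5 dendritic cell markers to 13.1 to 29.3 and 2.53 to 10.1 CPM, mostly from H2-Ab1, and the fibroblast and endothelium markers to 83.3 to 102.7 and 42.5 to 65.6 CPM, almost all from Pecam1, with Pdgfra at 0 in every DN3 library. All 6 lists were higher in every DN3 turnover library than in any DN3 autonomy library. Their part in the member differences was not tested.

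Within DP cells, the estimates leaned the other way, with 60 of 76 members negative in autonomy and a median of −0.25 against −0.02 for all genes. No member passed as higher and 3 passed as lower, or 3.95% of members, where 0.861% of the 10339 genes tested were lower and 0.861% were higher. At an unadjusted p under 0.05, 24 were lower and 2 higher. The share of all genes at that threshold was not computed, and the adjusted shares are no measure for it. The 3 were Rps4x, Rpl10 and Rpl4. Only Rps4x passed when any single library other than autonomy libraries RP1137 and RP1138 was left out, and without RP1138 Rpl35 passed as higher, at 1.01 (adjusted p = 0.0381).

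Rps4x encodes a small-subunit protein from the X chromosome (ENSMUSG00000031320, from 102184941 to 102189394, minus strand). It had 711.5, 784.3, 889.3 and 747.8 CPM in DP turnover and 403.5, 387.9, 464.5, 475.3 and 489.2 CPM in DP autonomy. The lowest turnover library was above the highest autonomy library, and the difference was log2 −0.83 (SE 0.11, adjusted p = 0.00434, 1.78-fold). It stayed past the threshold in all 9 fits that leave out 1 library, between −0.88 and −0.77. In DN3 the gene had 1397, 2663, 1740 and 816.2 CPM in turnover and 1844, 1946, 1453, 1784 and 1840 CPM in autonomy, overlapping, with a difference of 0.10 (SE 0.26, adjusted p = 0.837).

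Rpl10, also X-linked (ENSMUSG00000008682, from 74270812 to 74273135, plus strand), had 431.2, 431.4, 488.5 and 435.8 CPM in DP turnover and 208.0, 304.7, 294.2, 352.9 and 301.6 CPM in DP autonomy. The libraries did not overlap, and the difference was −0.62 (SE 0.14, adjusted p = 0.0466, 1.54-fold). Rpl4 (ENSMUSG00000032399, chromosome 9 from 64173375 to 64178666) had 1836, 1885, 1620 and 1606 CPM in DP turnover and 1260, 1256, 1452, 1326 and 1425 CPM in DP autonomy. It did not overlap either, at −0.38 (SE 0.09, adjusted p = 0.0471, 1.30-fold). Both calls were lost in 8 of the 9 fits that leave out 1 library, with differences of −0.70 to −0.53 for Rpl10 and −0.42 to −0.35 for Rpl4. Rpl9 (−0.58, adjusted p = 0.0532) and Rpsa (−0.69, adjusted p = 0.0539) lay just outside the threshold.

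The 4 X-linked members, Rpl10, Rps4x, Rpl36a and Rpl39, had a median of −0.60 in this comparison, with Rpl36a at −0.14 and Rpl39 at −0.58 not passing. All 320 X-linked genes tested had a median of −0.07, and the autosomal genes −0.01. Rpl35, a protein near the tunnel exit, was the largest positive estimate, at 0.84 (SE 0.27, adjusted p = 0.129), with 199.1, 128.7, 187.8 and 133.7 CPM in DP turnover and 299.7, 479.9, 273.1, 260.0 and 148.5 CPM in DP autonomy, overlapping in 1 autonomy library. Exons of opposite-strand genes cover 66.2% of its exon bases, and without strand such reads cannot be told apart. The authors' deposited table for DP calls Rpl35 higher and 11 members lower, among them Rps4x, Rpl10 and Rpl4. As for DN3, the share of all genes called there was not taken. Macrophage markers, 6 genes, summed to 2.48 to 22.8 CPM in DP turnover and 16.2 to 125.0 CPM in DP autonomy, with Adgre1 at 0 in every DP autonomy library, and dendritic cell markers, 5 genes, to 5.27 to 16.9 and 5.44 to 181.1 CPM. Their part was not tested.

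**Figure D3:**
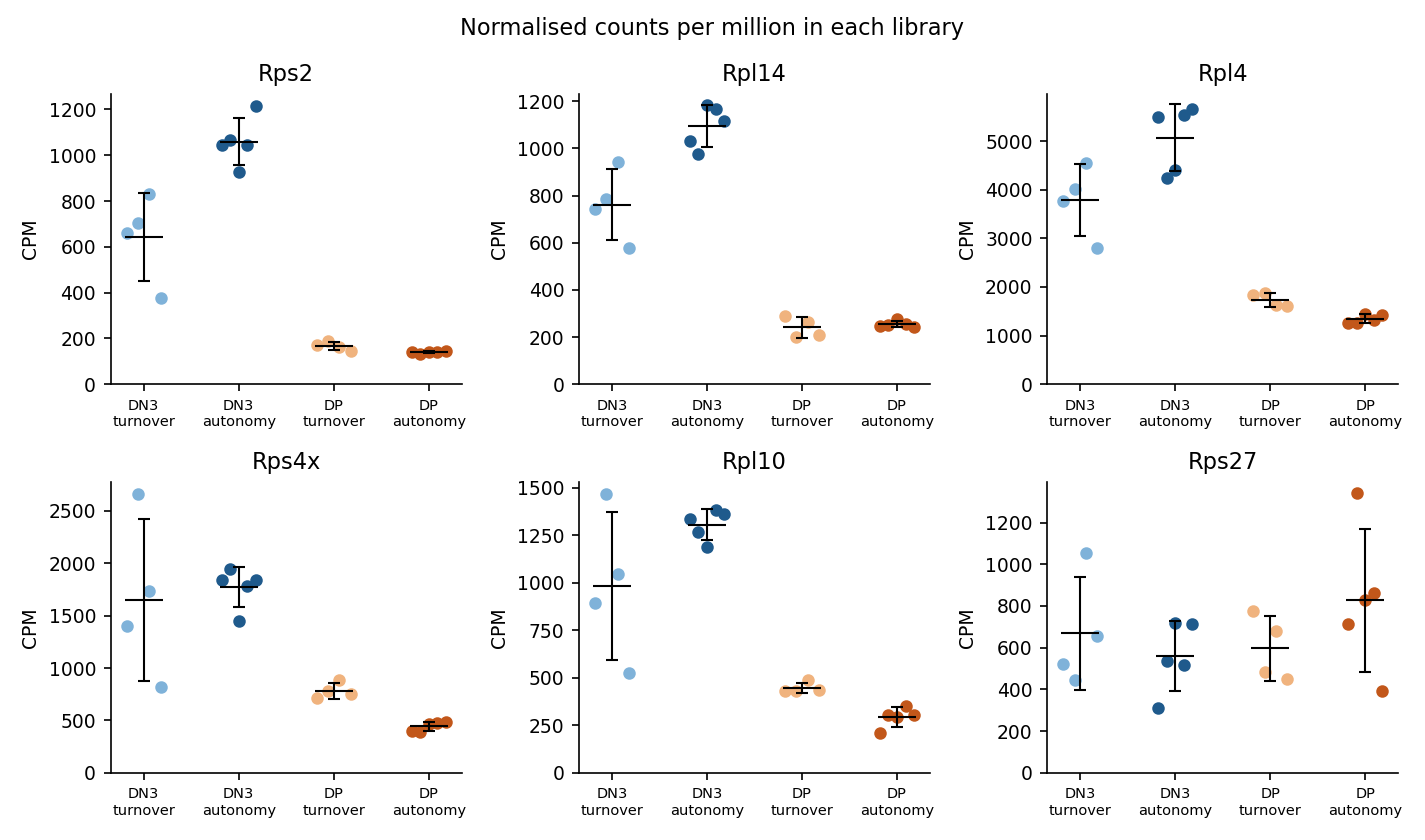
CPM (y axis, from 0) of Rps2, Rpl14, Rpl4, Rps4x, Rpl10 and Rps27 in each library (points) of the 4 groups, with mean and SD as bar and whiskers. Rps2 separates all 4 groups, the DP groups only narrowly and without passing the test. Rpl4, Rps4x and Rpl10 separate DP autonomy from DP turnover, and Rpl14 separates DN3 autonomy from DN3 turnover. Rps27 overlaps in every pair of groups.

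Whether the effect of autonomy differs between the stages was tested as a difference of differences over all 18 libraries. No member passed as higher in DP than in DN3 and 3 passed as lower, or 3.95% of members, where 2.61% of the 11521 genes were lower and 2.88% higher. At an unadjusted p under 0.05, 20 were lower and 0 higher, with no share of all genes computed at that threshold. The median was −0.43 against 0.06 for all genes. The 3 were Rpl10 (−1.02, SE 0.28, adjusted p = 0.0397), Rps2 (−0.98, SE 0.23, adjusted p = 0.0166) and Rpl4 (−0.79, SE 0.19, adjusted p = 0.0164). Rps2 and Rpl4 kept the call in all 18 fits that leave out 1 library, and Rpl10 lost it in 12. For Rps4x the difference of −0.92 had an adjusted p of 0.0828. Without DN3 turnover library RP1141B the median was −0.27 and 3 passed. The count was 7 without DN3 turnover library RP1140B and 5 without RP1141A or DN3 autonomy library RP1135. Across the 76 members the autonomy effects in DN3 and in DP, which share no library, had a Pearson correlation of 0.01 and a Spearman correlation of 0.09, given as a description.

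**Figure D4:**
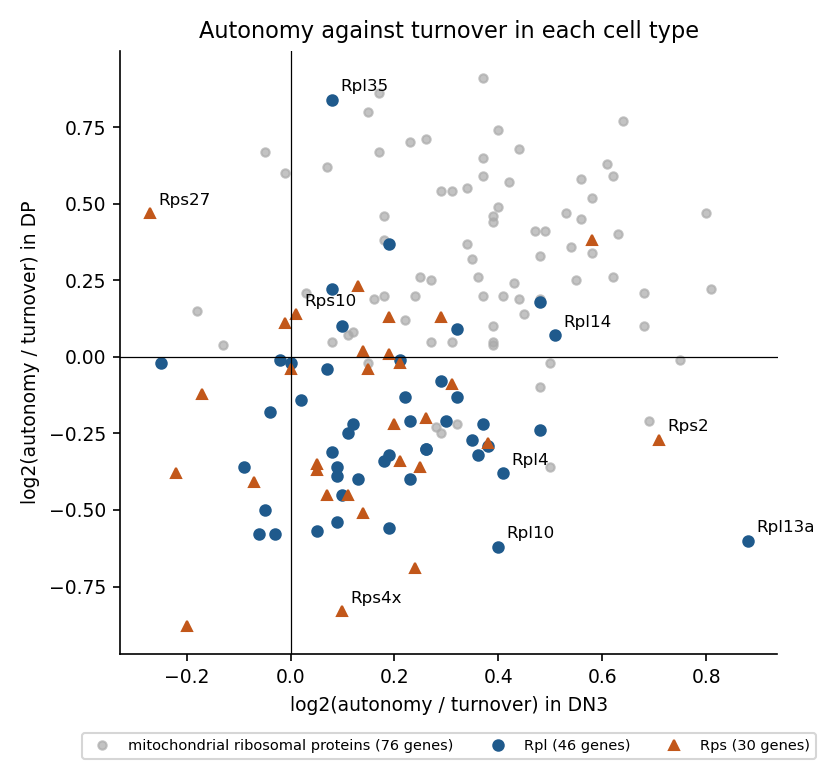
Autonomy over turnover difference (log2) in DN3 (x axis) and in DP (y axis) for the 76 cytosolic members (circles Rpl, triangles Rps) and 76 mitochondrial ribosomal protein genes (grey). In DP, 60 of the cytosolic members lie below 0 and 67 of the mitochondrial genes above it.

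Mitochondrial ribosomal proteins, which are encoded in the nucleus and build the ribosomes inside mitochondria, had mostly positive estimates in both stages. Of 76 tested, 67 had positive estimates in DP autonomy over turnover, with a median of 0.29 and none passing. At an unadjusted p under 0.05, 20 of them were higher and none lower, again without a share of all genes. In DN3 12 (15.8%) were higher and 0 lower, with a median of 0.38, where 6.53% of all genes tested were higher and 8.35% lower. From DN3 to DP 55 (72.4%) were lower in turnover (median −0.77) and 59 (77.6%) in autonomy (median −0.93), none higher. Of all genes tested, 19.1% and 25.2% were lower.

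Other mRNAs known to carry a TOP tract, mostly translation factors, were lower in DP for 11 of 15 genes in turnover and 14 of 15 in autonomy. These are 73.3% and 93.3%, against 19.1% and 25.2% of all genes tested, with medians of −0.97 and −1.53. Npm1, a nucleolar chaperone, was lower by −2.05 and −2.92, and Eef1g, a subunit of the elongation factor that reloads eEF1A, by −1.75 and −2.47. In DN3 autonomy 2 of 15 (13.3%, against 6.53% of all genes) were higher, Eef1d (0.61, adjusted p = 0.0312) and Nap1l1 (0.54, adjusted p = 0.0417). Each call was lost in 6 of the 9 fits that leave out 1 library: without RP1140A, RP1141B, RP1133, RP1137 or RP1138 for both, RP1140B for Eef1d and RP1134 for Nap1l1, with differences of 0.55 to 0.78 and 0.42 to 0.67 over the 9 fits. In DP autonomy 2 were lower (13.3%, against 0.861% of all genes): Hnrnpa1, a splicing regulator, by −1.05 (adjusted p = 0.0296), and Eef1a1, which delivers aminoacyl-tRNA, by −0.57 (adjusted p = 0.0163). The Hnrnpa1 call was lost in 5 of the 9 such fits (without turnover RP1140A, RP1140B or RP1141A, or autonomy RP1133 or RP1135; −1.17 to −0.95 over all 9), and that of Eef1a1 in 1 (without RP1140B, −0.54). The autonomy effect differed between the stages for Hnrnpa1 (−1.40, adjusted p = 0.0133) and Npm1 (−0.87, adjusted p = 0.0194).

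Of the 12 regulators of ribosomal protein synthesis, 3 were lower in DP turnover, and in autonomy 4 were lower and 1 higher. These shares are near those of all genes, of which 19.1% and 25.2% were lower. Myc fell from 683.6 to 41.9 CPM in turnover (−4.02, SE 0.23) and from 504.2 to 20.7 CPM in autonomy (−4.61, SE 0.21). Mycn was lower in autonomy at −2.40 (adjusted p = 0.0189), a call lost without DN3 autonomy library RP1135 (−2.08), and at −2.02 in turnover had an adjusted p of 0.0803, and Eif4ebp1, an mTOR target that blocks translation initiation, was lower at −1.85 in turnover and −1.47 in autonomy. Tsc1, which restrains mTOR, was higher in autonomy at 0.84 (adjusted p = 0.015). Rheb, the GTPase that activates mTOR, was lower in DP at −0.69 and −0.94, and was the 1 regulator to pass in DN3 autonomy, higher by 0.57 (SE 0.13, adjusted p = 0.0128), a call lost without RP1140A (0.54). Mtor itself was at 57.4 to 70.1 CPM in the group means and passed no test, and was named after its values were seen.

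Ribosome assembly factors and chaperones of single ribosomal proteins were lower in DP than in DN3 for 10 of 13 genes in turnover and 11 in autonomy. These are 76.9% and 84.6%, against 19.1% and 25.2% of all genes tested. Grwd1, a chaperone of RPL3, was lower by −2.82 and −3.14, and Rrs1, which brings the 5S particle into the large subunit, by −2.79 and −3.31. In DN3 autonomy 4 of 13 (30.8%, against 6.53% of all genes) were higher: Grwd1 (0.83, adjusted p = 0.0254), Bysl, of small-subunit assembly (0.80, adjusted p = 0.0149), Rpf2, the partner of RRS1 (0.67, adjusted p = 0.0249), and Rrs1 (0.60, adjusted p = 0.0257). Bysl passed in all 9 fits that leave out 1 library. The other calls were lost without RP1140A or RP1137, those of Grwd1 and Rpf2 also without RP1140B, that of Rrs1 without RP1141B, and those of Grwd1 and Rrs1 without RP1138. Rpf2 was named after its values were seen. Among the p53 genes, Mdm2 was higher in DP by 0.95 and 0.97, and Trp53 lower by −1.69 and −1.06. Cdkn1a, a p53 target that stops the cell cycle, was lower in DN3 autonomy by −1.57 (adjusted p = 0.00228), and lower in DP than in DN3 by −5.29 in turnover and −5.23 in autonomy, to 1.66 and 0.67 CPM.

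Of the 11 paralogs and fusion genes in the table, 9 were tested, and Rpl10l had no reads in any library. In DP over DN3, 5 of the 9 (55.6%) were lower in each condition and none higher, where 19.1% and 25.2% of all genes tested were lower. The 5 were Rpl22l1 as above, Rack1, a scaffold on the small subunit (−1.35 and −1.94), Rps27l, a p53-induced paralog of Rps27 (−1.50 and −1.32), Rpl36al (−0.90 and −1.08) and Rpl7l1 (−0.84 and −1.0). Fau, whose product is cut to release RPS30, was at 356.9, 359.7, 374.6 and 336.7 CPM in the 4 group means, with differences of 0.07 and −0.09. Rps27rt was at 13.4 to 16.6 CPM, and Rpl39l and Rpl3l at no more than 4.07 CPM, and these did not pass either. None of the list passed for autonomy over turnover in DN3 or DP.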

How the data were processed

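Raw whole-number counts per Ensembl gene were deposited by the authors. The tools were FastQC, HISAT2, featureCounts and DESeq2 and the builds mm10 and GRCm38, per the submitters' processing notes; versions, strand and the handling of multi-mapped reads are not stated in the sources used here. The authors also deposited a DESeq2 table per cell type, holding per the file headers a mean normalised signal, log2 fold changes with their standard errors, a Wald score and p-values; calls in it are quoted as the authors'. Symbols came from those tables (22566 genes) and coordinates from GENCODE M21.

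Here counts were scaled by TMM and tested with the edgeR 4.0.16 quasi-likelihood test (R 4.3.3) after filterByExpr, with Benjamini-Hochberg adjustment over all genes tested and a threshold of 0.05. Autonomy over turnover used the libraries of 1 cell type, and the other comparisons used all 18 libraries with 4 group means. An SE is the log2 difference divided by the square root of the F statistic. RPKM used the joined length of all annotated exons of a gene from GENCODE. The script was tested on simulated data. The members, lists and naming rule were chosen with earlier results of these data known. The text names 10 fixed members, the 5 largest called rises and falls per comparison at 10 CPM or more, the 2 highest and lowest per length, all tested paralogs, and up to 2 called genes per direction of each other list. Alternatives were DESeq2 1.42.0 size factors and test, total counts, limma 3.58.1 voom, scaling to the summed members, no filter, A and B libraries summed, all 18 libraries, an identifier block and leaving out each library. Low counts limit Rps10 and Rpl13a most, and the reason for these low counts was not tested. Results for a few genes that these rules name are not reported here.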

Additional observations from a re-analysis of the deposited data

Results flagged for a closer look

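Of 72 sets of library values (the share and 17 members in 4 groups), 2 had a sample far from the others by Dixon's test, and chance gives about 1 in 20. Rpl10 in DP turnover library RP1141A was at 488.5 CPM, with the others at 431.2 to 435.8 CPM. Rpl5 in DP autonomy library RP1133 was at 406.2 CPM, with the others at 477.9 to 507.1 CPM. The autonomy effect differed between DP and DN3, by the test of the difference itself, for Rpl10 (log2 −1.02), Rps2 (−0.98), Rpl4 (−0.79), Npm1 (−0.87) and Hnrnpa1 (−1.40), all lower in DP.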

How the results depend on the processing

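Members lower in DP than in DN3 remained between 56 and 69 in turnover and 69 and 72 in autonomy with any 1 library left out, and none was higher except 1 in autonomy (0 to 1). Scaling to the summed members removed the shared fall by construction: 6 higher and 10 lower in turnover and 9 and 12 in autonomy, with medians of 0.01, 0.10 and, for the difference of effects, 0.02. Under that scaling the DP over DN3 estimate turned positive in turnover for Rpl22 (0.12), Rplp0 (0.02), Rheb (0.29), Eef1a1 (0.02), Rpl36al (0.08) and Rpl7l1 (0.11), and in autonomy for Rpl11 (0.17), Rpl22 (0.17), Rps19 (0.04), Rheb (0.52), Rps27l (0.12), Trp53 (0.43), Rpl36al (0.36) and Rpl7l1 (0.47). No other called difference of a named gene changed sign under the settings run.

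Small counts moved more, and the cause was not tested. With 1 library left out, all genes called ran from 811 to 1784 in DN3 autonomy over turnover and from 33 to 252 in DP. For the difference of effects they ran from 424 to 684. The member counts below are given without the share of all genes called under the same setting. Whether they followed that share was not tested. In DN3 autonomy over turnover the 2 higher members became 0 with total counts or member scaling, 1 with no filter or with A and B summed, and 0 to 4 with 1 library left out. In DP the 3 lower members became 6 with total counts, 0 with member scaling (1 higher), 12 with DESeq2 (1 higher), 7 with voom and 1 with A and B summed or all 18 libraries; leaving out 1 library gave 1 to 3 lower and 0 to 1 higher. With member scaling Rps4x was at −0.60 (adjusted p = 0.0812). In DP over DN3 in autonomy total counts gave 1 higher. For the difference of effects, the 3 lower members became 0 with member scaling, 8 with DESeq2, 5 with voom, 1 with A and B summed and 2 to 7 with 1 library left out.

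Same-numbered DN3 and DP libraries did not deviate together (correlations −0.03 to 0.06), which does not show whether they come from the same thymus. The main fits did not treat the identifiers as pairing, and a block on them was an alternative. With the identifier as a replicate block, 62 members were lower in turnover and 71 in autonomy, and the difference of effects had 2 (Rpl10 at −1.15, adjusted p = 0.071).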
